A study of Mus musculus with 8 samples.

Results

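Ribosome biogenesis and nucleolar genes were examined in mouse bone marrow-derived macrophages, untreated or stimulated for 4 h. A list of 34 gene symbols was matched by Ensembl identifier to the deposited expression tables, and 33 of them were found among 36806 genes. Noc2l was not matched and was not analysed here. The 33 genes code for RNA polymerase I subunits (2 genes), general nucleolar proteins (7), proteins of box C/D small nucleolar ribonucleoproteins (4) and of box H/ACA ones (3), and assembly factors of the small (7) and the large (10) ribosomal subunit. Marrow cells of C57BL/6 mice had been grown to day 7 in medium conditioned by L929 fibroblasts, a source of the macrophage growth factor CSF1. One culture received no agent. The other 7 received a single agent each. These were 100 ng/ml of IFNg, the cytokine interferon gamma, 10 ng/ml of IL4, the cytokine interleukin 4, 10 ng/ml of the inflammatory cytokine TNFa, 1 ng/ml of the growth regulator TGFb1, 10 ng/ml of IL1b, another inflammatory cytokine, 1 ng/ml of MALP2, a lipopeptide of mycoplasma sensed by Tlr2 with Tlr6, and 100 nM of CpG, unmethylated DNA sensed by Tlr9. Poly(A) RNA gave 1 library per condition, 8 in all.

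Ribosomes are made in the nucleolus. RNA polymerase I transcribes the large precursor of the ribosomal RNAs there, small nucleolar ribonucleoproteins modify and help to cut it, and assembly factors join it with imported ribosomal proteins to give precursors of both subunits. Many genes of this pathway are known as targets of the transcription factor MYC, and the pathway is known to be raised when resting cells, immune cells among them, are activated to grow.

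Levels are given in FPKM, fragment counts scaled to transcript length and library size, which can be compared between genes and, with care, between libraries. Each stimulus was compared with the untreated library as log2 of (stimulated FPKM + 1) over (untreated FPKM + 1). A gene counted as higher or lower when this value was at least 1 in size, a 2-fold difference, and the gene had at least 1 FPKM in either library. Folds below are on this same scale, which understates the difference of weakly expressed genes. With 1 library per condition there was no replicate check and no test, and all 7 comparisons use the same untreated library, so a deviation of that library would appear in every one of them. In such bulk RNA, fewer cells expressing a gene and less RNA per cell cannot be told apart.

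The deposited tables give no read counts, so the absolute depth is unknown. For genes seen as 1 fragment, the FPKM of that fragment relative to untreated was 2.04 after IFNg and 1.04 to 1.44 after the other agents, which makes IFNg the shallowest library. The median change of genes with at least 1 FPKM on both sides was -0.10 (CpG) to -0.071 (TGFb1) on the log2 scale. Macrophage markers other than Lyz2 were present throughout, with Csf1r between 1045 and 1543 FPKM and Cd68 between 1486 and 2171 FPKM. Others varied more, with Mertk from 1.18 (MALP2) to 23.1 FPKM (untreated). Fcgr1 ran from 116 (IL4) to 1233 FPKM (IFNg), and Cd14 from 288 (IL4) to 2324 FPKM (MALP2). Lyz2 was listed at 0 in 5 libraries and at 11380 to 17856 FPKM after IFNg, IL4 and MALP2. Its estimates were not of status OK throughout, so its 0 values cannot be read as absent expression. None of 4 erythroid markers reached 1 FPKM in any library. B cell markers (3 of 6 at 1 FPKM or more in every library) summed to 236 FPKM in the untreated library and to between 37.9 and 72.2 FPKM in the stimulated ones, with Cd79a and Ms4a1 below 1 FPKM everywhere. Stromal markers (3 to 5 of 6 at 1 FPKM or more) summed to 87.1 FPKM in the IFNg library and to between 40.6 and 48.0 FPKM in the others. Neutrophil markers (3 to 7 of 7) summed to between 141 FPKM (IL4) and 375 FPKM (IFNg). T and NK cell markers (1 or 2 of 7) summed to between 5.89 FPKM (MALP2) and 22.1 FPKM (IFNg), and at most 1 of 5 dendritic cell markers reached 1 FPKM. The part of such cells in the results was not tested.

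Most of the nucleolar genes stood higher in all 7 stimulated libraries than in the untreated one. The summed FPKM of the 33 genes was 430 in untreated macrophages, 898 after IFNg, 1918 after IL4, 1426 after TNFa, 1089 after TGFb1, 1330 after IL1b, 1421 after MALP2 and 1275 after CpG. The untreated library held the lowest value of the 8 for 32 of the 33 genes, where it was the lowest for 20.6% of all 13467 genes at 1 FPKM or more in a library. Npm1 was the exception, lowest after MALP2 (13.9% of all genes). IL4 gave the highest of the 8 values for 25 genes (17.6% of all genes), MALP2 for 6 (12.6%), IFNg for Noc4l alone (15.8%) and CpG for Rcl1 alone (6.03%).

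After IL4, 31 of the 33 genes were at least 2-fold higher, where 9.86% of all 12908 genes tested were, and their median log2 change was 2.11. IL1b followed with 29 genes (7.29% of all genes) and a median of 1.60, and TNFa with 28 genes (8.92%) and a median of 1.74. MALP2 gave 26 higher genes (9.53%, median 1.69), TGFb1 gave 25 (7.15%, median 1.29) and CpG gave 25 (9.43%, median 1.46). IFNg stood at the other end with 13 higher genes (10.7%) and a median of 0.86. The median over all genes tested lay between -0.12 and -0.077 in the 7 comparisons. No nucleolar gene was at least 2-fold lower after any stimulus, where 12.7% (IFNg), 11.9% (IL4), 10.4% (TNFa), 9.15% (TGFb1), 8.57% (IL1b), 11.7% (MALP2) and 11.2% (CpG) of all genes were.

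**Figure D1:**
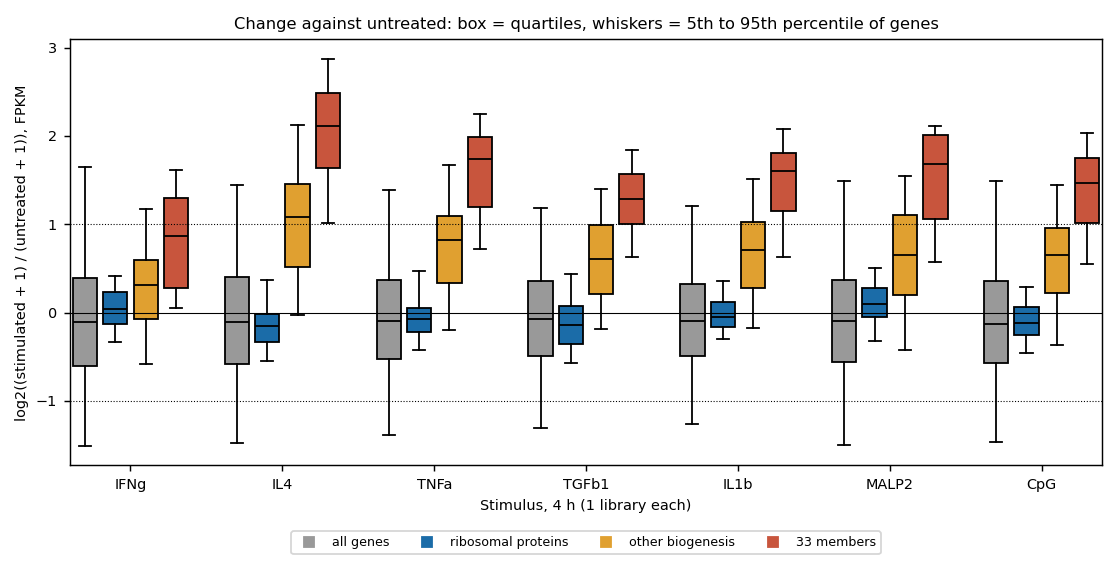
Log2 change against untreated (vertical axis) for 4 sets of genes in each of the 7 comparisons, with boxes at the quartiles, a line at the median and whiskers at the 5th and 95th percentile of genes. The 33 nucleolar genes (red) have medians from 0.86 (IFNg) to 2.11 (IL4), the other ribosome biogenesis genes (yellow) medians from 0.31 to 1.09, and the ribosomal protein genes (blue) stay around 0.

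The authors' own statistics give fewer genes. The confidence bounds they deposited with each FPKM value did not overlap between stimulated and untreated for 24 higher genes after IL4 (6.5% of all genes), 21 after TNFa (6.36%) and 21 after IL1b (5.83%), 16 after TGFb1 (6.2%) and 16 after MALP2 (5.67%), 14 after CpG (6.14%) and 7 after IFNg (6.58%). In the authors' deposited table of comparisons, the genes that were both at least 2-fold higher and called significant numbered 29 after IL4 (6.79% of all genes), 26 after IL1b (5.33%), 24 after TNFa (6.4%), 22 after MALP2 (6.34%), 20 after TGFb1 (5.09%), 19 after CpG (6.6%) and 9 after IFNg (7.56%). These statistics rest on the same single libraries and hold no spread between cultures.

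**Figure D2:**
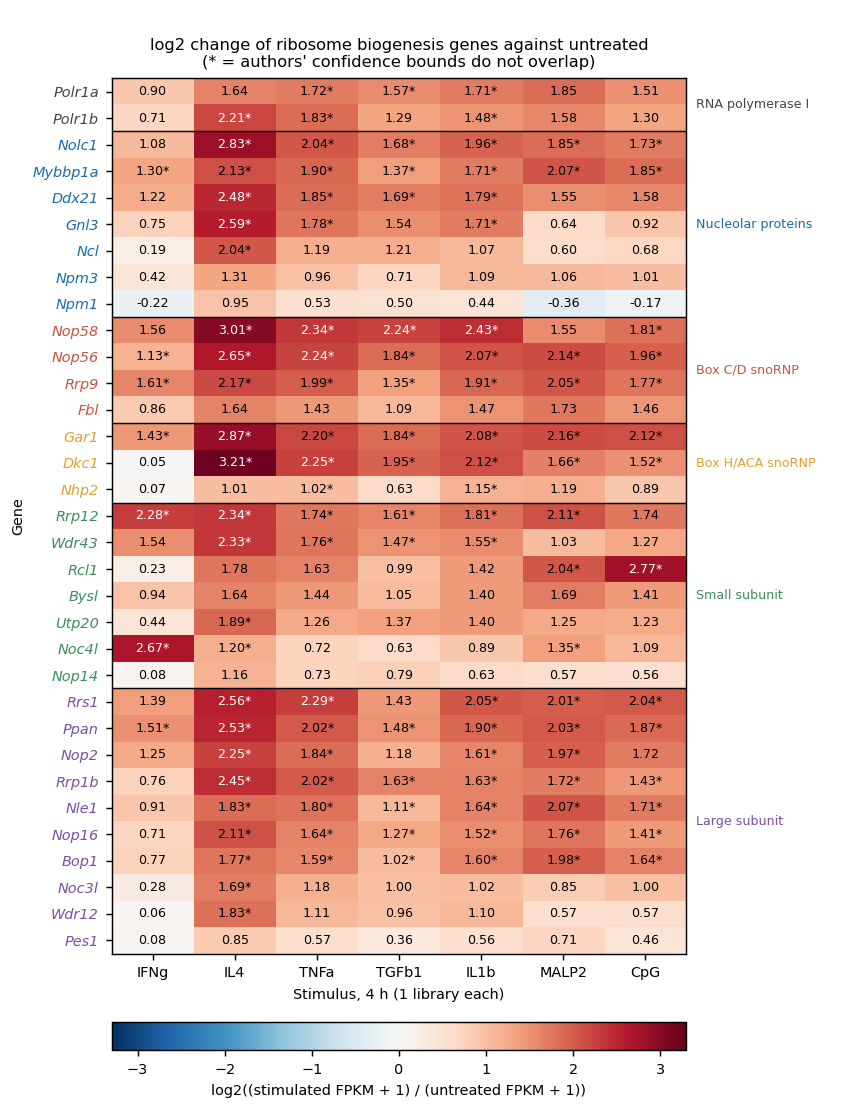
Log2 change against untreated for each of the 33 genes (rows, grouped by role) after each stimulus (columns), as numbers and as colour from blue (lower) to red (higher), with an asterisk where the authors' confidence bounds do not overlap. The IL4 column is the darkest, the IFNg column the palest apart from Noc4l (2.67) and Rrp12 (2.28), and the rows of Npm1, Pes1 and Nop14 are pale throughout.

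Promoter sequences from RefSeq on build GRCm38.p6 were found for 29 of the 34 symbols, as windows from 250 bases before to 50 after each annotated start. The deposited tables use the older build mm9, and no coordinate was carried from one to the other. The motif CACGTG, the E-box that MYC binds with its partner MAX and that other factors of the same class also bind, reads the same on both strands and was present in the windows of 6 of 29 genes (20.7%), against 8.09% of 27025 gene symbols and 12.3% of the 8169 expressed ones. These 6 sites are shown in 30-base windows on the gene's strand, with the motif in capitals, because they are the letters in this gene set that MYC is known to recognise.
Nop2, chr6:125131811-125131840: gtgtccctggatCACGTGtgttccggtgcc
Utp20, chr10:88826765-88826794: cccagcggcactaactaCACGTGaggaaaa
Pes1, chr11:3963965-3963994: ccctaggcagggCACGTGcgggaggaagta
Mybbp1a, chr11:72441347-72441376: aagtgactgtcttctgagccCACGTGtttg
Nle1, chr11:82908355-82908384: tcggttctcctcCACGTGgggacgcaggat
Wdr43, chr17:71616220-71616249: cgcccgggcgaaCACGTGgctgccgcggag

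The E-box of Nop2 lay 60 bases upstream of the start, and those of Pes1, Wdr43, Nle1, Utp20 and Mybbp1a lay 2, 17, 23, 37 and 40 bases downstream of it. The ETS-type motif CCGGAAG, searched on both strands (CTTCCGG on the other), was found in 7 of the 29 (24.1%), which are Gar1, Nhp2, Noc2l, Noc3l, Nolc1, Nop2 and Ppan, against 9.93% of all symbols and 22.2% of expressed ones. Nop2 alone held both an E-box and an ETS-type motif, and its upstream window (GRCm38.p6 chr6:125131633-125131882, plus strand, 67.6% G and C) is shown whole, with both motifs in capitals.
Nop2: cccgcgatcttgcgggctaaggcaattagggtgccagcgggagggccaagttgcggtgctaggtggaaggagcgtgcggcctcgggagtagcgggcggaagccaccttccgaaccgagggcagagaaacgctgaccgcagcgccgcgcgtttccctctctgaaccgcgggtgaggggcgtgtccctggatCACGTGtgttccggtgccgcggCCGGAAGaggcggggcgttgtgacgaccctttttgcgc

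The TATA motif TATAAA, on either strand, was found in 3 of the 29 (Dkc1, Pes1 and Ppan, 10.3%), against 15.7% of all symbols and 8.34% of expressed ones. The palindromic motifs of BANP and NRF1, which read the same on either strand, were found in none of the 29, in 0.525% and 1.07% of all symbols, and in 1.26% and 2.58% of expressed ones. The 6 genes with an E-box were set beside the other 22 with both a promoter window and an expression value. Their median log2 changes were 2.01 and 2.14 after IL4 and 1.08 and 0.75 after IFNg. After the other stimuli they were 1.78 and 1.75 (TNFa), 1.27 and 1.32 (TGFb1), 1.58 and 1.58 (IL1b), 1.61 and 1.62 (MALP2), and 1.49 and 1.42 (CpG). After IFNg the changes ran from 0.082 to 1.54 with an E-box and from 0.046 to 2.67 without. The 2 sets were not tested against each other. A match describes these letters only and was not tied to binding in these cells.

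RNA polymerase I was represented by Polr1a and Polr1b, its large catalytic subunits. Polr1a stood at 7.35 FPKM in untreated macrophages and at 14.6, 25.0, 26.5, 23.7, 26.4, 29.2 and 22.9 FPKM after IFNg, IL4, TNFa, TGFb1, IL1b, MALP2 and CpG, the order used for all 7 values below. Polr1b stood at 6.16 FPKM untreated and at 10.8, 32.1, 24.6, 16.5, 18.9, 20.4 and 16.7 FPKM after the same stimuli. Both were lowest in the untreated library and lowest of the stimulated ones after IFNg, but Polr1a was highest after MALP2 and Polr1b after IL4. Their log2 changes against untreated ran from 0.90 to 1.85 for Polr1a and from 0.71 to 2.21 for Polr1b. The other 13 listed subunits and factors of RNA polymerase I, of which 12 were tested, differed less from untreated. Of these, 3 were at least 2-fold higher after IL4, none after IFNg and 2 after each of the other 5. The shares over all genes were 9.86% (IL4), 10.7% (IFNg) and 7.15% to 9.53% (the other 5). Median log2 changes of these 12 lay between -0.19 and 0.21.

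The box C/D ribonucleoproteins carry out the 2'-O-methylation of ribosomal RNA. Nop56, a core scaffold protein of the complex, stood at 32.6 FPKM untreated and at 72.8, 210, 158, 119, 140, 147 and 130 FPKM after the 7 stimuli. Its partner Nop58 stood at 2.65 FPKM untreated and at 9.88, 28.1, 17.5, 16.2, 18.6, 9.73 and 11.9 FPKM. Both were at least 2-fold higher after every stimulus, with IL4 at the top, where Nop56 was 6.29-fold and Nop58 8.04-fold higher. By the mean of the 7 log2 changes Nop58 (2.13) came first of the 33 genes, followed by Gar1 (2.10) and Nop56 (2.01). The authors' bounds were apart in all 7 comparisons for Nop56 and in 5 for Nop58. In their deposited table both genes were called in all 7. The locus of Nop56 overlaps that of Idh3b, which reached 1 FPKM in the untreated library.

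Rrp9, a protein of the U3 particle that guides early cuts in the ribosomal RNA precursor, stood at 12.0 FPKM untreated and at 38.8, 57.2, 50.6, 32.0, 47.7, 52.8 and 43.3 FPKM. Unlike most of the set it was not lowest after IFNg among the stimulated libraries, but after TGFb1. Fbl, the methyltransferase itself (fibrillarin), stood at 13.6 FPKM untreated and at 25.6, 44.3, 38.4, 30.1, 39.6, 47.6 and 39.3 FPKM. Its log2 changes of 0.86 to 1.73 were smaller, and the authors' bounds overlapped in all 7 comparisons (5.66 to 21.6 FPKM untreated, 18.9 to 76.3 FPKM after MALP2).

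The box H/ACA ribonucleoproteins convert uridines of ribosomal RNA to pseudouridine, and 1 of their proteins, Dkc1, varied more between stimuli than any other gene of the set. Dkc1, the pseudouridine synthase itself (dyskerin), stood at 7.02 FPKM untreated (bounds 4.98 to 9.06) and at 7.28, 72.8, 37.1, 29.9, 33.9, 24.3 and 22.0 FPKM after the 7 stimuli. The IFNg library (bounds 4.73 to 9.83) was level with the untreated one, and the IL4 library (bounds 54.6 to 91.0) was 10.0 times the IFNg one as a plain ratio of FPKM. The IL4 change against untreated, 3.21 on the log2 scale of FPKM + 1 or 9.25-fold, was the largest of any of the 33 genes after any stimulus, and in the authors' deposited table Dkc1 was called after all stimuli other than IFNg.

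Gar1, another H/ACA core protein, stood at 14.7 FPKM untreated and at 41.4, 114, 71.1, 55.0, 65.3, 69.5 and 67.5 FPKM. It was at least 2-fold higher after every stimulus, IFNg (2.69-fold) included, with the authors' bounds apart in all 7. Nhp2, also an H/ACA core protein, stood at 40.5 FPKM untreated and at 42.5, 82.9, 83.4, 63.1, 91.0, 94.0 and 76.0 FPKM. It thus began higher than its partners and changed less, with a largest fold of 2.29 after MALP2. Nhp2 and Dkc1 were both within 1.05-fold of untreated after IFNg, where Gar1 was not.

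**Figure D3:**
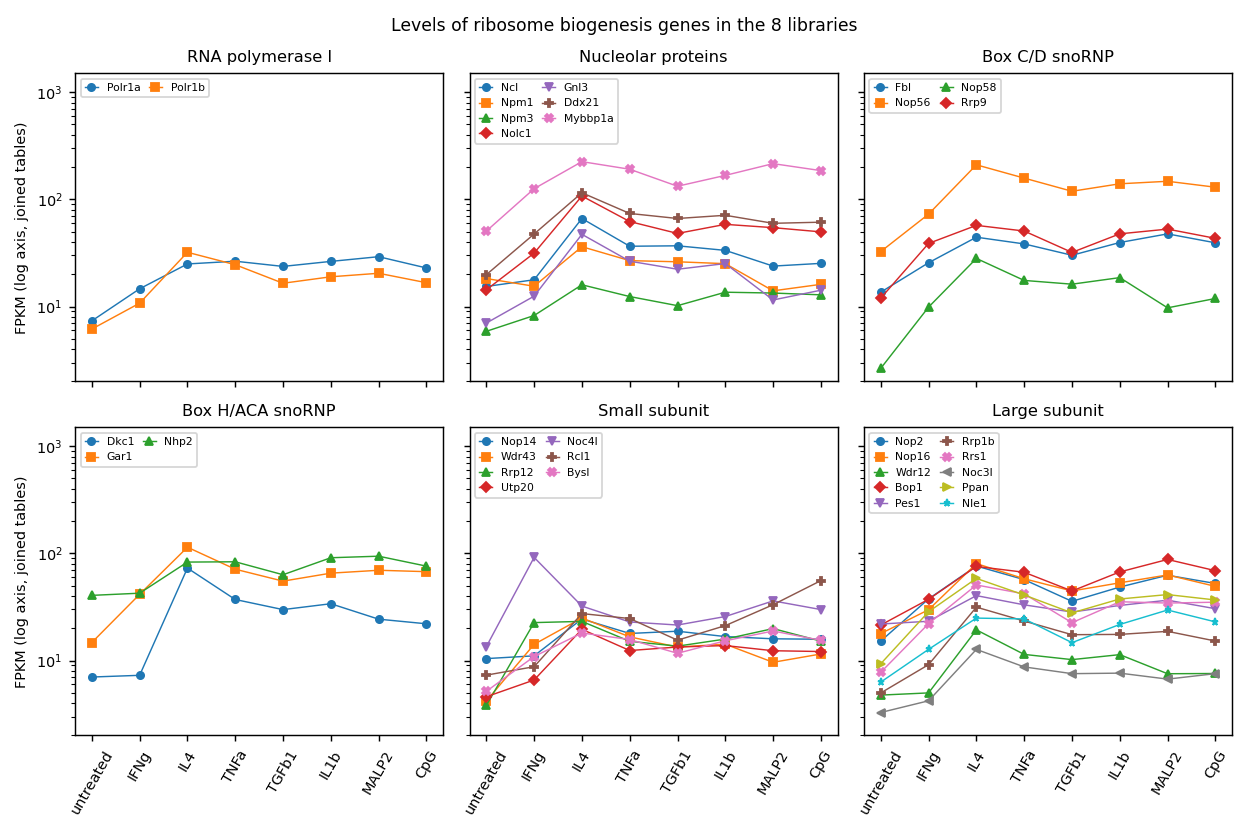
FPKM on a log axis of each of the 33 genes in the 8 libraries, in 6 panels by role, with lines that only join the points of 1 gene. Most lines start at their lowest in the untreated library and peak after IL4, while Noc4l peaks after IFNg (91.6 FPKM), Rcl1 after CpG (55.7 FPKM), and Dkc1 is as low after IFNg (7.28 FPKM) as untreated (7.02 FPKM).

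General nucleolar proteins differed widely among themselves, from Nolc1 (mean log2 change 1.88) to Npm1 (0.24), the lowest of the 33. Nolc1, a chaperone of nucleolar ribonucleoproteins also known as Nopp140, stood at 14.3 FPKM untreated and at 31.5, 107, 62.0, 48.1, 58.4, 54.4 and 49.7 FPKM. The RNA helicase gene Ddx21, which takes part in both polymerase I transcription and rRNA processing, stood at 19.8 FPKM untreated and at 47.5, 115, 73.8, 66.3, 71.0, 59.7 and 61.2 FPKM. Mybbp1a, a nucleolar regulator of transcription and the most abundant of the 33 in the untreated library, stood at 50.5 FPKM untreated and at 126, 225, 191, 132, 167, 215 and 185 FPKM. These 3 genes were at least 2-fold higher after all 7 stimuli, and in each of them IFNg gave the lowest stimulated value.

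Ncl (nucleolin), a major nucleolar RNA-binding protein, stood at 15.4 FPKM untreated and at 17.8, 66.2, 36.5, 36.8, 33.4, 23.8 and 25.3 FPKM. It was at least 2-fold higher after IL4, TNFa, TGFb1 and IL1b, and its folds after IFNg, MALP2 and CpG were 1.14, 1.51 and 1.60. Gnl3 (nucleostemin), a nucleolar GTP-binding protein of growing cells, had the same division, with 7.01 FPKM untreated and 12.5, 47.2, 26.5, 22.3, 25.2, 11.5 and 14.2 FPKM after the 7 stimuli. In both genes the MALP2 and CpG libraries lay below those of IL4, TNFa, TGFb1 and IL1b.

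Npm1 (nucleophosmin), a histone and ribosome chaperone of the outer nucleolus, was the only gene of the 33 with values below the untreated one. It stood at 18.2 FPKM untreated and at 15.5, 36.2, 26.8, 26.1, 25.1, 14.0 and 16.1 FPKM, and its log2 changes ran from -0.36 after MALP2 to 0.95 after IL4. None of these reached 2-fold, and the authors' bounds overlapped with untreated in all 7 (11.0 to 25.4 FPKM untreated, 22.8 to 49.5 FPKM after IL4, 8.32 to 19.7 FPKM after MALP2). Npm1 has processed pseudogenes of nearly the same sequence that can take its reads, so its values are uncertain. Its paralogue Npm3 was lower in level and stood at 5.87 FPKM untreated and at 8.24, 16.0, 12.4, 10.2, 13.6, 13.4 and 12.9 FPKM. Npm3 was at least 2-fold higher after IL4, IL1b, MALP2 and CpG. The authors' bounds overlapped with untreated in all 7 comparisons, and none of the 7 was called in their deposited table. A pseudogene named Npm3-ps1 is annotated, so the values of Npm3 are uncertain as well.

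Among small-subunit factors, Noc4l and Rcl1 each peaked after a stimulus of their own. Noc4l, which works with Nop14 on the small-subunit precursor, stood at 13.5 FPKM untreated (bounds 8.39 to 18.5) and at 91.6, 32.2, 22.9, 21.4, 25.7, 36.0 and 29.9 FPKM. The IFNg value (bounds 53.4 to 130) was 6.38-fold above untreated and 3.21-fold above the median of the other 6 stimulated libraries, and its bounds did not reach those of any of the IL4, MALP2 and CpG values, the highest of which ended at 48.3 FPKM. Noc4l was the only one of the 33 with its highest value after IFNg. Its partner Nop14 stood at 10.4 FPKM untreated and at 11.1, 24.4, 17.9, 18.8, 16.7, 15.9 and 15.8 FPKM, at least 2-fold higher after IL4 alone (2.23-fold) and near its untreated level after IFNg.

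Rcl1, a protein needed to cut the small-subunit RNA free of its precursor, stood at 7.31 FPKM untreated (bounds 3.01 to 11.6) and at 8.76, 27.4, 24.7, 15.5, 21.2, 33.2 and 55.7 FPKM. Its CpG value (bounds 22.2 to 89.1) was 6.81-fold above untreated, and MALP2, the other ligand of a Toll-like receptor, came next with 4.10-fold. The CpG bounds overlapped those of MALP2 (13.2 to 53.1 FPKM), IL4 (11.5 to 43.4), TNFa (10.7 to 38.6), IL1b (10.2 to 32.1) and TGFb1 (7.37 to 23.6). These libraries could therefore not be ordered by the bounds. Only the IFNg bounds (2.89 to 14.6 FPKM) and the untreated ones lay below those of CpG. After IFNg, Rcl1 was 1.17-fold above untreated.

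Rrp12, an export factor of the subunit precursors, stood at 3.81 FPKM untreated and at 22.6, 23.2, 15.1, 13.6, 15.9, 19.9 and 15.2 FPKM. IFNg (4.86-fold) was here nearly level with IL4 (5.06-fold), and Rrp12 had the largest IFNg change of the set after Noc4l. Wdr43, a protein of the early processing complex that also bears on polymerase I transcription, stood at 4.19 FPKM untreated and at 14.2, 24.9, 16.6, 13.4, 14.2, 9.63 and 11.5 FPKM, with its lowest stimulated value after MALP2. Utp20, a large protein of the same complex, had log2 changes from 0.44 (IFNg) to 1.89 (IL4), and Bysl, a factor of late small-subunit maturation, from 0.94 (IFNg) to 1.69 (MALP2).

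Large-subunit factors were the largest group. Of 10 genes, 9 were at least 2-fold higher after IL4, TNFa and IL1b, 8 after TGFb1, 7 after MALP2 and CpG, and 3 after IFNg. Of all genes, 10.7% were so after IFNg and between 7.15% (TGFb1) and 9.86% (IL4) after the others. Rrs1, which brings a small ribosomal RNA with its proteins into the precursor, stood at 7.77 FPKM untreated and at 22.1, 50.7, 41.9, 22.5, 35.4, 34.4 and 35.0 FPKM. Ppan, a processing factor of the same subunit, stood at 9.34 FPKM untreated and at 28.5, 58.3, 40.9, 27.8, 37.5, 41.2 and 36.7 FPKM. Nop2, a methyltransferase of the large-subunit RNA, stood at 15.2 FPKM untreated and at 37.6, 76.1, 56.8, 35.7, 48.5, 62.5 and 52.3 FPKM. These 3 are the genes of the group at least 2-fold higher after IFNg, and TGFb1 was level with or below IFNg in each of them.

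Pes1, Bop1 and Wdr12 form a complex, named PeBoW after them, that is needed for cutting the precursor of the large-subunit RNA, and the genes of the complex did not change alike. Bop1 stood at 21.4 FPKM untreated and at 37.3, 75.5, 66.6, 44.5, 67.1, 87.7 and 68.9 FPKM, highest after MALP2. Wdr12 stood at 4.76 FPKM untreated and at 4.99, 19.3, 11.4, 10.2, 11.4, 7.53 and 7.57 FPKM, highest after IL4 and close to untreated after IFNg. Pes1 stood at 21.9 FPKM untreated and at 23.3, 40.3, 33.1, 28.3, 32.7, 36.5 and 30.4 FPKM, below 2-fold after every stimulus. After MALP2 the log2 changes of Bop1, Pes1 and Wdr12 were 1.98, 0.71 and 0.57.

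The remaining large-subunit factors shared their lowest change, after IFNg, but not their highest. Nle1, which prompts the release of factors from the precursor, had log2 changes from 0.91 (IFNg) to 2.07 (MALP2). The changes of Nop16 ran from 0.71 (IFNg) to 2.11 (IL4), those of Rrp1b, which is also a partner of a phosphatase in the nucleolus, from 0.76 (IFNg) to 2.45 (IL4), and those of Noc3l from 0.28 (IFNg) to 1.69 (IL4).

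The stimuli were also set against each other without the untreated library, each against the median over the remaining 6 stimulated libraries. IL4 stood above the others, with a median log2 difference over the 33 genes of 0.62 and 32 genes above 0, of which 5 were at least 2-fold higher (4.88% of all genes): Dkc1 (1.39), Gnl3 (1.32), Ncl (1.15), Wdr12 (1.04) and Nolc1 (1.03). IFNg stood below the others, with a median of -0.71 and 30 genes below 0. Dkc1 (-1.99) and Rcl1 (-1.47) were at least 2-fold lower (3.5% of all genes) and Noc4l (1.68) at least 2-fold higher (7.72%). The lowest of the 7 stimulated values was the IFNg one for 24 genes (30.4% of all genes), the TGFb1 one for 5 (13.3%) and the MALP2 one for 4 (17.1%).

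The other 5 stimuli differed little by this measure. Their median differences were 0.15 (TNFa), 0.13 (MALP2), 0.026 (IL1b), -0.13 (CpG) and -0.27 (TGFb1). No gene of the 33 was 2-fold from the other libraries after TNFa, IL1b, TGFb1 or MALP2, where 1.6%, 1.24%, 3.54% and 3.24% of all genes were at least 2-fold higher and 0.837%, 1.12%, 4.03% and 1.5% at least 2-fold lower. After CpG only Rcl1 was (1.24, 3.65% higher and 0.837% lower among all genes). IFNg was the shallowest library, with the highest stromal marker sum, and neither was tested for a part in its lower values.

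Within these differences, the order of the 33 genes went with the base composition of their transcripts, for some stimuli more than for others. Each library is part of the reference of the others, so the values of r below are not independent of each other. The share of G and C in the longest annotated transcript ran from 40.4% (Wdr12) to 59.9% (Rrp9). That transcript was 10012, 9507 and 8202 bases long for Wdr12, Nop58 and Ncl, and 1611 bases for Rrp9. It need not be the one expressed in these cells, which was not examined. Across the 33 genes, which share the same libraries, Pearson's r between this share and the difference from the other 6 libraries was 0.81 for MALP2, 0.47 for CpG and 0.29 for IFNg, and -0.86 for TGFb1, -0.67 for IL1b, -0.66 for IL4 and -0.51 for TNFa. Over all genes r was 0.27 for MALP2, -0.16 for TGFb1, -0.12 for IL4, 0.12 for CpG and -0.11 for TNFa. For IFNg (-0.024) and IL1b (0.024) the value over all genes had the opposite sign to that over the 33. The 11 genes with the least G and C, among them Wdr12, Nop58, Npm1, Ncl, Dkc1 and Gnl3, had a median difference of -0.46 after MALP2 and 0.84 after IL4. The 11 with the most, among them Rrp9, Nle1, Bop1 and Gar1, had 0.28 after MALP2 and 0.32 after IL4.

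With each gene's difference reduced by the median of all genes of like composition (in 10 bins), r over the 33 was computed again. It was 0.57 for MALP2, 0.27 for CpG, 0.28 for IFNg, -0.66 for TGFb1, -0.68 for IL1b, -0.45 for IL4 and -0.34 for TNFa. The medians over the 33 genes went from 0.13 to 0.023 for MALP2, from -0.27 to -0.23 for TGFb1, and from 0.62 to 0.61 for IL4. Whether base composition or the genes themselves set this order was not tested, and it touches the comparisons above in which Ncl, Gnl3 and Wdr12 were low after MALP2 and CpG. Dkc1, Gnl3, Ncl and Wdr12, at least 2-fold above the other stimuli after IL4, are among the 11 genes with the least G and C, and Nolc1 is not. Npm1, Nop58, Wdr43 and Gnl3, whose lowest stimulated value was the MALP2 one, are also among these 11.

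**Figure D4:**
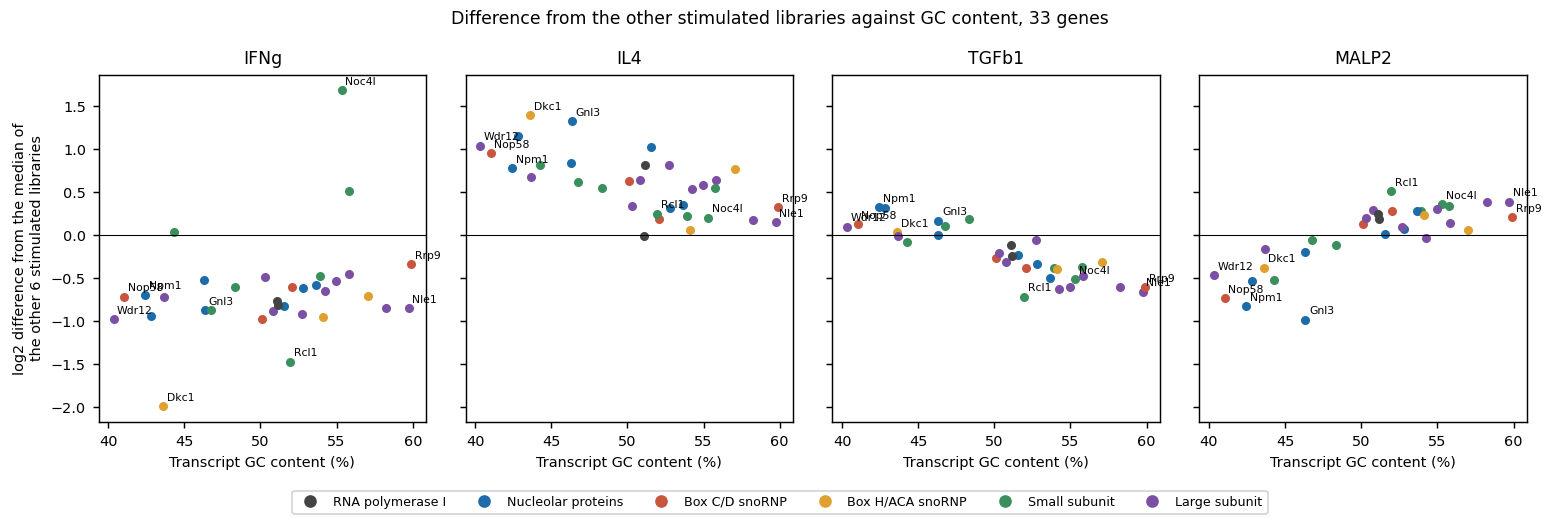
Difference of each of the 33 genes from the median of the other 6 stimulated libraries (vertical axis, log2), for 4 stimuli, coloured by role. The horizontal axis is the G and C content of each gene's longest annotated transcript, in percent. The points climb from left to right for MALP2 (r 0.81) and descend for TGFb1 (r -0.86) and IL4 (r -0.66), and for IFNg Noc4l (1.68) and Dkc1 (-1.99) lie apart from the rest.

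The list of 125 other ribosome biogenesis genes, of which 123 were found and 119 or 120 tested, was also higher for many genes, with smaller medians than the 33. After IL4, 67 of 120 were at least 2-fold higher (9.86% of all genes) with a median log2 change of 1.09. After IFNg 8 of 119 were, with a median of 0.31, a smaller share than the 10.7% of all genes. The counts after TNFa, TGFb1, IL1b and CpG were 40, 27, 32 and 28 of 120 (8.92%, 7.15%, 7.29% and 9.43% of all genes). After MALP2 the count was 34 of 119 (9.53%). The medians after these stimuli lay between 0.61 and 0.82. At least 2-fold lower were 1 gene after IFNg (12.7% of all genes), 1 after CpG (Taf1d, -1.03, 11.2%) and none after the other 5 (8.57% to 11.9%). Highest by mean change among 118 genes at 5 FPKM or more in a library was Tsr1, a factor of late small-subunit maturation, at 9.39 FPKM untreated and 45.7, 87.6, 59.9, 49.0, 51.5, 43.7 and 45.8 FPKM stimulated. Gtpbp4 (mean log2 change 1.71) and Nifk (1.70) followed, both nucleolar proteins of the large-subunit pathway. Lowest were Pih1d1 (mean -0.87), a factor of ribonucleoprotein assembly, Polr1c (-0.56), a subunit shared by RNA polymerases I and III, and Taf1d (-0.53), a subunit of the polymerase I promoter factor.

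Genes of the ribosomal proteins themselves, the cargo of the assembly factors, stayed near their untreated levels. Of 76 tested, none was at least 2-fold higher or lower after any stimulus. Of all genes, 7.15% to 10.7% were so higher and 8.57% to 12.7% so lower. The median log2 changes of the 76 lay between -0.15 (IL4) and 0.09 (MALP2). The highest by mean change was Rpl12 (0.76), at 17.8 FPKM untreated and 25.9, 35.9, 31.8, 28.0, 31.5, 34.5 and 28.7 FPKM stimulated, followed by Rpl27 (0.65) and Rps13 (0.55). The lowest were Rpl7a (-0.47), Rpl13a (-0.40) and Rpl17 (-0.40). Ribosomal protein genes have many processed pseudogenes of nearly the same sequence that can take their reads, so single values of this list are uncertain.

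Myc itself, which codes for the transcription factor named above, was at least 2-fold higher after every stimulus. It stood at 3.41 FPKM untreated and at 24.9, 122, 82.6, 39.8, 66.0, 49.1 and 40.0 FPKM after IFNg, IL4, TNFa, TGFb1, IL1b, MALP2 and CpG, with IFNg lowest and IL4 highest of the stimulated libraries. These are folds of 5.80 to 28.2, and in the authors' deposited table Myc was called in all 7. Mycn reached at most 0.031 FPKM, and Mycl stood at 0.12 FPKM untreated and at 0.43, 0.082, 2.78, 0.14, 2.55, 1.31 and 4.35 FPKM.

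Among genes of repressors that share the partner MAX with MYC, Mxd4 and Mnt were lower throughout and Mxd1 was not. Mxd4 stood at 66.5 FPKM untreated and at 4.43, 15.0, 4.51, 8.37, 6.15, 4.89 and 5.43 FPKM, and Mnt at 36.4 FPKM untreated and at 5.54, 10.7, 11.4, 11.2, 9.38, 9.10 and 10.5 FPKM. Both were at least 2-fold lower after all 7 stimuli. Mxd1 differed between stimuli, with 7.98 FPKM untreated and 38.0, 1.42, 7.27, 2.27, 4.63, 7.45 and 12.7 FPKM, highest after IFNg and lowest after IL4. Max stood at 51.7 FPKM untreated, at 94.5 FPKM after IFNg and between 37.8 and 52.4 FPKM after the others. Mxi1, Mxd3, Mlx, Mlxip and Mga stayed below 2-fold in every comparison.

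**Figure D5:**
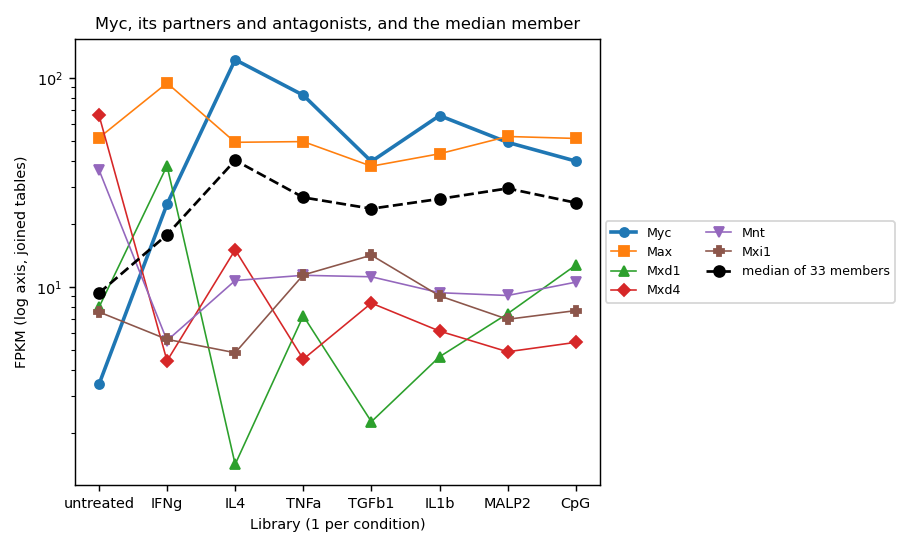
FPKM on a log axis of Myc, Max and 4 genes of MAX-binding repressors in the 8 libraries, with the median of the 33 nucleolar genes as a dashed black line; lines only join the points of 1 gene. Myc goes from 3.41 FPKM untreated to 122 FPKM after IL4, the median of the 33 goes from 9.34 to 40.3 FPKM, and Mxd4 and Mnt have their highest values untreated.

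Genes of the cell cycle did not show the same picture. Of 20 listed genes 19 were tested. Their median log2 change was -1.22 after IFNg, -0.76 after IL4, -0.72 after TNFa, -0.75 after MALP2 and -0.72 after CpG. After IFNg 12 were at least 2-fold lower (12.7% of all genes) and 1 at least 2-fold higher (10.7%). After IL4, TNFa, MALP2 and CpG, 5, 4, 3 and 5 were lower (11.9%, 10.4%, 11.7% and 11.2%). None was higher after these stimuli (8.92% to 9.86%). After TGFb1 the median was -0.08, with 6 genes at least 2-fold higher (7.15% of all genes) and 3 lower (9.15%). After IL1b it was -0.05, with 2 higher (7.29%) and 3 lower (8.57%). The summed FPKM of the list ran from 196 (CpG) to 484 (TGFb1), with 291 untreated. After IFNg the sum was 298 FPKM, of which 1 gene held 217, so it does not follow the median there.

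Many of the 33 genes share their place in the genome with others. The locus given in the deposited tables overlapped that of another listed gene for 18 of them, and for 9 this neighbour reached 1 FPKM in the untreated library: Npm3 (Mgea5), Nop56 (Idh3b), Dkc1 (Mpp1), Nhp2 (Rmnd5b), Wdr12 (Carf and Gm15464), Bop1 (Mroh1), Rrp9 (Parp3), Gnl3 (Glt8d1 and Spcs1) and Bysl (Ccnd3). Ncl, Nop56, Nop58, Gnl3 and Ppan also host small nucleolar RNA genes within their transcripts. Whether counting used the strand is not given in the sources used here. Reads in the shared stretches therefore cannot be assigned, and the values of these genes are uncertain to that extent. Noc4l, Gar1, Nop2, Nolc1, Ddx21, Rrs1, Rrp12, Fbl and Npm1 are among the 15 without such an overlap.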

How the data were processed

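Poly(A) RNA-seq was deposited for 8 libraries, 1 per condition. Per the submitters' processing notes, TopHat 1.3.1, Cufflinks 1.2.1, Cuffdiff 1.2.1 and build mm9 were used; options, strandedness and counts per gene: not given in the sources used here. The authors deposited, per the file headers, a table per stimulus of FPKM in both libraries, each value with its confidence bounds, and a Cuffdiff table with q-values and calls (the level of the bounds is not stated, and the highest q-value called was below 0.05). Genes without status OK (336 to 388 per comparison) were left out. Since FPKM is relative to the whole library, very abundant transcripts shift all others.

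Identifiers were matched to symbols with GENCODE and RefSeq tables (31840 of 36806). A pseudocount of 1 FPKM, a floor of 1 FPKM in either library and a log2 threshold of 1 were used. The untreated values of the 7 tables differ by 1 factor each, so all levels above are joined by it; folds are computed within each table. No p-value was computed. The members and gene lists were chosen with earlier results of these data known. Named were all members, all MYC-network genes, and the 3 highest and 3 lowest of the other biogenesis and ribosomal protein lists by mean change; several other genes of those lists stand only in counts. Alternatives tried: pseudocount 0.1, floor 5 FPKM or absent, centring, the authors' bounds or calls, leaving out overlapping loci and, added after seeing the data, adjustment for base composition and a reference without IFNg. The counting rule was run on simulated data with changes set well above the threshold and little noise. That run checks the rule alone and does not bear on the precision of single libraries. Software was matplotlib 3.10.9, scipy 1.17.1, pandas 2.3.3 and numpy 2.4.6 under Python 3.11.15.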

Additional observations from a re-analysis of the deposited data

Results flagged for a closer look

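Npm1 had values on both sides of the untreated one after different stimuli. Its log2 change was -0.36 after MALP2 and also below 0 after IFNg (-0.22) and CpG (-0.17), and it was 0.95 after IL4, with TNFa (0.53), TGFb1 (0.50) and IL1b (0.44) also above 0. No change reached 2-fold, the authors' confidence bounds overlapped with untreated in all 7 comparisons, and in the authors' deposited table Npm1 was called in none. Each condition is 1 library, and the difference was not tested. Npm1 is also among the 11 genes of the set with the least G and C in the longest annotated transcript (42.4%). The part of base composition in its values was not tested.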

How the results depend on the processing

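The 7 counts of higher genes, the 7 counts of lower genes, the 7 medians against untreated and the 7 medians against the other stimulated libraries were recomputed under the alternatives that bear on each. The authors' bounds and calls were applied to counts alone, no floor and leaving out overlapping loci to the comparisons with untreated, and the reference without IFNg to 6 medians. Of 188 values, 174 kept their direction and stayed within 1.5 times (counts) or 0.25 (medians) of the reported value. The counts of lower genes add little to this figure. They were 0 as reported, so alternatives that only remove genes or add a requirement could not change them. All 33 genes had already passed the floor of 1 FPKM in every comparison, so the 21 values without a floor could not change either. In the comparisons with untreated, the floor of 5 FPKM left 31 genes after IFNg and removed none after the other stimuli. Requiring the authors' confidence bounds to be apart gave 7 higher genes after IFNg, 16 after TGFb1, 16 after MALP2 and 14 after CpG. Leaving out genes whose locus overlaps another left 15 genes, fewer by construction. Of these, 8 were higher after IFNg, 14 after IL4 and 13 after each of TNFa, TGFb1, IL1b, MALP2 and CpG. Over all genes, overlapping or not, 10.7% were higher after IFNg and between 7.15% (TGFb1) and 9.86% (IL4) after the others. The IL1b median against the other stimulated libraries, 0.026, changed sign with centring (-0.0072), with a reference without IFNg (-0.036) and with adjustment for base composition (-0.013), the last 2 chosen after seeing the data; it is too close to 0 to carry a direction. No paired analysis was possible because each condition is 1 library. Read counts are not given, so what depth allows could not be computed; the authors' bounds are the only measure of precision.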
